A study of Mus musculus with 4 samples.

Results

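C-type lectin receptors are proteins with a carbohydrate-recognition fold, many of which sense microbes, dying cells or other cells' surface sugars. The genes described here were the entries of the count table whose mouse symbol starts with Clec and a digit or with Cd209, together with the mannose receptors Mrc1 and Mrc2, the galactose-type lectin Mgl2, langerin (Cd207), the activation marker Cd69 and the antigen uptake receptor Ly75. The symbols alone chose 46 of 54752 gene IDs. This rule, and the role groups and gene lists used below, were set with earlier results of these data known. The 46 genes were measured by RNA sequencing of murine aortic grafts collected 4 weeks after aorta transplantation. There were 2 groups of 2 libraries (n = 2 per group throughout). ALLO grafts are abdominal aorta allografts in chronic rejection, by the title of the series, and the meaning of ISO is not given in the labels. All the mice carried a transplanted aorta, and the labels give neither strain, age, sex nor drug treatment. Whether a group's libraries stem from separate animals is not stated either, so a p-value here reflects the spread of these 4 samples only. That spread may be technical in ALLO. The ISO libraries are not repeats of 1 RNA sample, since they differ in Xist and Y-linked counts.

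Most of these receptors belong to myeloid cells. The activating ones (Dectin-2, Mincle, MCL, MDL-1) have short tails and signal through the adaptors Fcer1g or Tyrobp and the kinase Syk, while Dectin-1 carries its own Syk-binding motif. DCIR and Clec12a instead recruit phosphatases that restrain the cell, and the mannose receptor, DEC-205 and the galactose-type lectins take up ligands for degradation or antigen presentation. A few members are not leukocyte receptors at all: Clec14a is a protein of endothelial cells, Clec3b (tetranectin) and Clec11a are secreted, and Clec16a is an intracellular protein of endosomes and mitophagy.

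The libraries held between 17532344 and 20194854 counts, of which 9014 to 38154 came from the 46 genes. ISO replicate 1 stood apart from ISO replicate 2 in several lists of leukocyte markers. Its summed CPM (counts scaled to library size with TMM factors) were 2.49 times as high for the macrophage and monocyte markers, 9.61 times for the neutrophil markers and 58.3 times for the B cell markers. The B cell ratio rests on 0.664 CPM in ISO replicate 2. T cell and classical dendritic cell markers were also higher in ISO replicate 1. Natural killer cell markers were lower in it, at 1.34 against 4.41 CPM. Plasmacytoid dendritic cell markers were slightly lower, at 143 against 161 CPM, and resident macrophage markers nearly equal, at 1155 and 1147. ISO replicate 1 was also the library with Xist RNA (10647 counts, at most 8 in the others). It had no count of the Y-linked Ddx3y, which reached at least 2105 in the others. Of the 32 members with enough counts to be tested, 27 were higher in this library than in the other ISO library. The same held for 54.3% of all genes tested. For the members that rose in ALLO the median ratio of the ISO libraries was 2.42, against 1.03 over all genes tested. The 2.42 leaves out Cd69, Clec2g and Clec4a4, which had no count in ISO replicate 2. Fold changes that move by more than 1.5 times without a library are therefore given with those values. The smooth muscle marker genes were far lower in ALLO: their summed CPM was 28261 and 28339 in ISO and 1157 and 2402 in ALLO, and all 6 fell. The macrophage and monocyte markers had summed CPM of 1007 and 405 in ISO and of 9576 and 7905 in ALLO, and 10 of 11 rose. In the lists for other cells, 4 of 6 plasmacytoid dendritic cell markers, 1 of 6 B cell markers and 1 of 4 adipocyte markers rose, and none of these fell. In such whole-tissue RNA, more or fewer cells of a type and more or less RNA per cell cannot be told apart.

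Of the 46 members, 32 passed the filter on low counts and 14 did not. Among the 32, 17 rose in ALLO, 3 fell and 12 did not pass the test (edgeR quasi-likelihood test, Benjamini-Hochberg adjusted p under 0.05 over 16498 genes). Over all genes tested, 18.4% were called higher and 14.8% lower, 33.1% in all. Both ALLO libraries lay above both ISO libraries for 22 of the 32 and below them for 6. The same held for 37.1% and 35.4% of all genes tested. The median log2 change was 3.13 over the 32, or 2.82 with Clec4a4, which had no count in ISO, at its lower bound, beside 0.03 over all genes tested. In 5 of the 32 both ISO libraries lay under the filter's limit, so they passed only through ALLO. Cd69, Cd209a, Clec4b1, Clec4d, Clec4e and Clec4n had only 1 ISO library over it, so they too needed ALLO to pass. Of all these, only Cd209a, Cd209d and Clec4e were not called higher. Without ISO replicate 1 the median over these 32 was 4.30, or 3.55 with the 4 members then without ISO counts at their bounds. The number of members called was lowest without ALLO replicate 1, at 14, of which 13 were among the 20, and it was 15, 14 of them shared, without ALLO replicate 2.

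Levels of different genes were compared as TPM, library-scaled counts divided by the deposited gene length. The summed TPM of the 46 genes was 857 and 714 in ISO and 1834 and 1946 in ALLO. In ISO the secreted Clec3b was the most abundant member at a mean of 407 TPM, followed by Clec2d at 94.2, Mrc2 at 58.3 and Clec11a at 52.6. In ALLO the most abundant was the DCIR family member Clec4a1 at 267 TPM, followed by Clec2d at 186, Clec7a at 185, Clec3b at 175 and Clec4a3 at 160. The endothelial, secreted and intracellular members made up 62.8% and 66.7% of the TPM of all members in ISO and 11.7% and 12.4% in ALLO. Their own summed TPM was 538 and 476 in ISO and 215 and 241 in ALLO, so much of the drop in share reflects the larger total. The DCIR family went from 3.24% and 1.58% in ISO to 28.3% and 23.7% in ALLO, and the activating receptors from 2.86% and 0.454% to 16.8% and 18.3%.

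**Figure D1:**
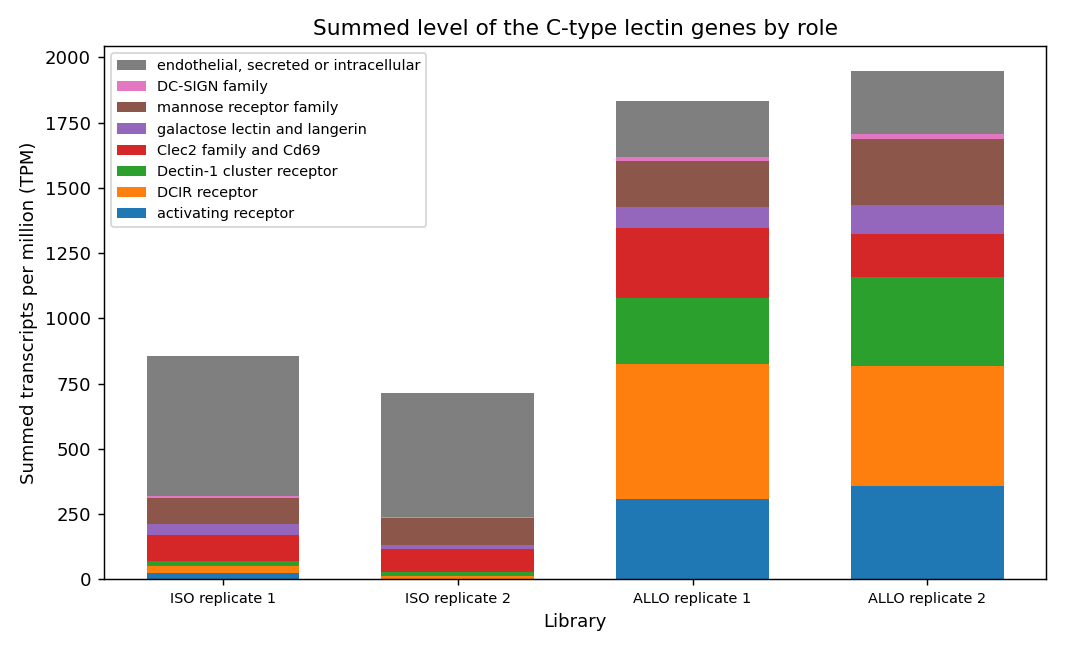
Summed TPM of the members of each role group in each of the 4 libraries. The endothelial, secreted and intracellular group holds 62.8% and 66.7% of the members' TPM in the ISO libraries and 11.7% and 12.4% in the ALLO libraries.

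**Figure D2:**
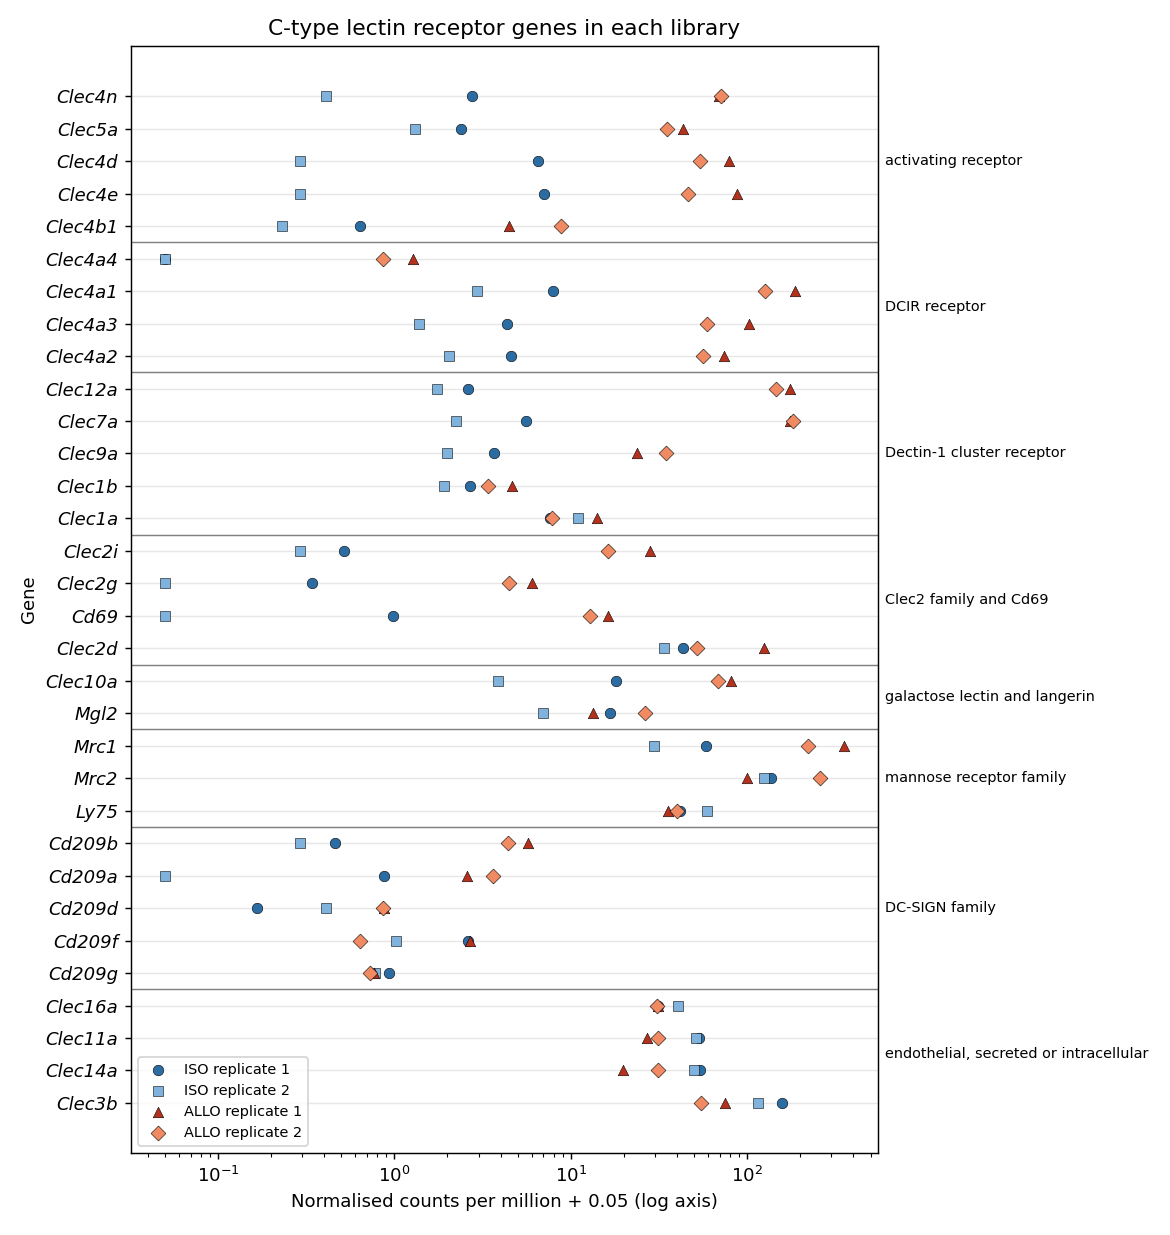
CPM plus 0.05 of the tested members in each library on a log axis, grouped by role, with 1 point per library. For 22 of 32 members both ALLO points lie above both ISO points, and for 6 both lie below.

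Promoters are shown for 3 receptors of myeloid cells that rose and for the endothelial Clec14a, which fell, since myeloid promoters are known for sites of the factor PU.1, whose core reads GAGGAA. The windows, from RefSeq on GRCm38.p6, run from 250 bases before to 50 after a start site, and capitals mark GAGGAA or its reverse complement TTCCTC. They are Clec12a (chr6:129349994-129350293, plus strand), Clec7a (chr6:129472730-129473029, minus strand), Clec4d (chr6:123261857-123262156, plus strand) and Clec14a (chr12:58269209-58269508, minus strand).
Clec12a: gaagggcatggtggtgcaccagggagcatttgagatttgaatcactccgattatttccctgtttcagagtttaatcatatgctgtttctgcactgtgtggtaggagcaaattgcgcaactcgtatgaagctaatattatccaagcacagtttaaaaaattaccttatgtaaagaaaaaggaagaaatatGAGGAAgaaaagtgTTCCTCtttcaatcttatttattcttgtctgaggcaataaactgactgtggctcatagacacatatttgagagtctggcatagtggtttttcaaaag
Clec7a: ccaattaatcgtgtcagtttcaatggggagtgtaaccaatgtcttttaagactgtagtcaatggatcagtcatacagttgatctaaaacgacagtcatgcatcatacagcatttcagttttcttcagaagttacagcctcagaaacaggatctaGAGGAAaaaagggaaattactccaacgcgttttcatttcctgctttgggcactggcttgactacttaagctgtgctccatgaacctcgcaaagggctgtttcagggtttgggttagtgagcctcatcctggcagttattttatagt
Clec4d: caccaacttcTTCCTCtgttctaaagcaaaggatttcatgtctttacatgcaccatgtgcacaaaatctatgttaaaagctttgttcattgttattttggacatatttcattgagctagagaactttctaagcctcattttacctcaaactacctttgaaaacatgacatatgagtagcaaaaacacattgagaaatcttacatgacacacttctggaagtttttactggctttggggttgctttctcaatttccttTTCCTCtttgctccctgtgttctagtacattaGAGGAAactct
Clec14a: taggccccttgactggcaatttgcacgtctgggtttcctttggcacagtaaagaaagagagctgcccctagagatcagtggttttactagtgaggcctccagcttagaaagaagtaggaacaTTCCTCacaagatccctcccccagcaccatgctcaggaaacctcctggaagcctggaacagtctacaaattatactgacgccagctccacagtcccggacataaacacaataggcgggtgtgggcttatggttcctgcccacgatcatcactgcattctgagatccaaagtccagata
In the Clec12a window the first letters of the matches lie at -61 and -47 from the start site, and in that of Clec7a at -96. Clec4d has 3 matches, 1 of them at -240 and the others past the start site at 8 and 40, and Clec14a has 1 at -128. RefSeq windows were matched for 36 members (39 windows). GAGGAA on either strand was in 20 of the 39, or 51.3%, and in 28.3% of all 32851 promoters. Among members that rose, 9 of 16 windows held it (56.2%), and so did both windows of members that fell. TGACTCA, the letters of an AP-1 site, searched on both strands, was in 15.4% of the members' windows and 5.20% of all promoters. The STAT-type letters TTCNNNGAA, which read the same on both strands, were in 2.56% and 8.30%. Each motif was counted on its own, overlaps with another included, and a match describes the sequence, not binding.

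The receptors of the Dectin-1 cluster on chromosome 6 include the largest well-counted rises. Clec12a is an inhibitory receptor of myeloid cells known for sensing uric acid crystals (ENSMUSG00000053063.11, chr6:129342691-129365303). Its CPM, here and below in the order ISO replicates 1 and 2 then ALLO replicates 1 and 2, was 2.57, 1.69, 175 and 145. The ALLO libraries were both high and close to each other, and the groups did not overlap. It rose 74.9-fold, a log2 change of 6.23 ± 0.31 (SE, adjusted p = 0.00214), from 2.13 ± 0.624 to 160 ± 20.9 CPM (mean ± SD). Clec7a, or Dectin-1, the receptor for fungal beta-glucans (ENSMUSG00000079293.11, chr6:129461591-129472779), stood at 5.55, 2.17, 173 and 182 CPM. Again both ALLO libraries were far above ISO, and ISO replicate 1 was the higher of its group. It rose 45.9-fold (log2 change 5.52 ± 0.51, adjusted p = 0.00384), and 80.9-fold without ISO replicate 1. The annotation lists Clec7a as a polymorphic pseudogene.

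Clec9a, the receptor of cross-presenting dendritic cells for the actin of dead cells, stood at 3.63, 1.93, 23.6 and 34.5 CPM (chr6:129408862-129424763). Both ALLO libraries were above both ISO libraries, and it rose 10.4-fold (log2 change 3.38 ± 0.43, adjusted p = 0.00648). Of the classical dendritic cell markers, 7 of 9 rose and none fell, with summed CPM of 76.7 and 35.7 in ISO and of 630 and 756 in ALLO, and their part in the Clec9a value was not tested. Clec1b, the platelet receptor of podoplanin, did not pass the test (2.63, 1.87, 4.57 and 3.36 CPM, log2 change 0.81 ± 0.46, adjusted p = 0.234). Its ALLO libraries were above ISO by little. None of 8 platelet markers rose or fell, with summed CPM of 57.9 and 32.3 in ISO and of 67.6 and 62.1 in ALLO. Clec1b and Clec9a overlap on the same strand, by 3.61% and 5.59% of their exonic bases, so a share of their reads is uncertain. Clec1a, found on endothelial and dendritic cells, stood at 7.60, 10.9, 14.0 and 7.76 CPM and its groups overlapped (adjusted p = 0.695). The inhibitory receptor Clec12b had 9, 4, 2 and 8 counts and was not tested. In this group 3 of 5 tested members rose (18.4% over all genes tested).

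The activating receptors that couple to Fcer1g or Tyrobp come next. Clec4n, or Dectin-2, binds fungal mannans (ENSMUSG00000023349.14, chr6:123229843-123247021). Its CPM was 2.69, 0.362, 69.0 and 70.7. The ALLO libraries nearly coincided, while ISO replicate 1 was 7.43 times ISO replicate 2. It rose 45.4-fold (log2 change 5.50 ± 0.81, adjusted p = 0.00924), with a fold of 188 when ISO replicate 1 was left out and 25.5 when ISO replicate 2 was. Clec5a, or MDL-1, which pairs with Tyrobp (ENSMUSG00000029915.14, chr6:40574894-40585821), stood at 2.34, 1.27, 42.9 and 34.9 CPM. Its ISO libraries differed less than those of Clec4n, and no library removed moved its fold by more than 1.5 times. It rose 21.5-fold (log2 change 4.42 ± 0.39, adjusted p = 0.00364).

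Clec4e, or Mincle, and Clec4d, or MCL, form a receptor pair for mycobacterial glycolipids, and Mincle also senses a nuclear protein released by dying cells. Clec4d stood at 6.49, 0.241, 79.0 and 53.7 CPM (ENSMUSG00000030144.4, chr6:123262111-123275265). Clec4e stood at 6.96, 0.241, 87.3 and 46.0 CPM (ENSMUSG00000030142.10, chr6:123281789-123289870). For both, ISO replicate 1 was far above ISO replicate 2, 26.9 times for Clec4d and 28.8 times for Clec4e, yet below both ALLO libraries. Clec4d rose 19.6-fold (log2 change 4.29 ± 1.19, adjusted p = 0.0465). With ISO replicate 1 left out its fold was 265, with ISO replicate 2 left out it was 10.1, and the call was lost without ALLO replicate 1 (0.116), without ALLO replicate 2 (0.0830) and with a mean count filter of 10 (0.0587). Clec4e, with a log2 change of 4.20 ± 1.24, missed the threshold (adjusted p = 0.0542). It passed with limma-voom, the DESeq2 Wald test and 5 further alternatives. It did not pass with upper-quartile factors, the mean count filter of 10 or either ALLO library left out. Its log2 change was 8.06 once ISO replicate 1 was removed and 3.23 once ISO replicate 2 was. Either fit keeps only 1 ISO library, so the 28.8-fold gap between the ISO libraries is absent from its spread. The neutrophil markers had summed CPM of 143 and 14.8 in ISO and of 340 and 164 in ALLO, with 2 of 6 tested rising (Csf3r and Cxcr2), and their part in the 2 values was not tested.

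Clec4b1, or DCAR, an Fcer1g-coupled receptor of dendritic cells and monocytes, stood at 0.585, 0.181, 4.42 and 8.76 CPM (chr6:123049962-123071555). Both ALLO libraries were above ISO, and it rose 16.9-fold (log2 change 4.08 ± 0.74, adjusted p = 0.0151). Leaving out ISO replicate 1 gave a fold of 34.9 and leaving out ISO replicate 2 gave 11.01, and the adjusted p was 0.0529 without ALLO replicate 2. Its near copy Clec4b2 had no count in any library, a value that reads assigned to the other copy could affect. Of the 5 tested activating receptors 4 rose (18.4% over all genes tested).

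All 4 members of the DCIR family rose. Clec4a2 and Clec4a4 carry an inhibitory motif in their tails, and the family is expressed by dendritic cells, monocytes and macrophages. Clec4a1 (ENSMUSG00000049037.8, chr6:122921848-122934619) stood at 7.84, 2.90, 186 and 127 CPM. Both ALLO libraries were far above both ISO libraries. It rose 29.1-fold (log2 change 4.86 ± 0.56, adjusted p = 0.00533), and 53.3-fold without ISO replicate 1.

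Clec4a3 (chr6:122952515-122969875) stood at 4.33, 1.33, 103 and 58.9 CPM and rose 28.4-fold (log2 change 4.83 ± 0.64, adjusted p = 0.00721). Leaving out ISO replicate 1 gave a fold of 59.9, and leaving out ISO replicate 2 gave 18.3. Clec4a2 (chr6:123106428-123143999) stood at 4.56, 1.99, 73.6 and 56.3 CPM and rose 19.8-fold (log2 change 4.30 ± 0.46, adjusted p = 0.00479), or 32.2-fold without ISO replicate 1. In both genes the ALLO libraries were above ISO throughout, with ALLO replicate 1 the higher. Clec4a4 (chr6:122990367-123024105) had 0, 0, 24 and 18 counts and was at least 2.88-fold higher in ALLO, taking 6 counts per library, or 3 read pairs, as the floor (adjusted p = 0.0242). That call was lost without any 1 of the 4 libraries (adjusted p from 0.0881 to 0.132). The members of this family are similar in sequence, and how reads mapping to several places were counted is not given in the sources used here.

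The Clec2 proteins are ligands that other cells display to the Klrb1 receptors of natural killer cells, and Cd69 is an early activation marker that keeps lymphocytes in tissue by removing S1pr1 from the surface. Clec2i, a ligand of Klrb1f (ENSMUSG00000030365.11, chr6:128887588-128898167), had 8, 4, 545 and 355 counts, or 0.468, 0.241, 28.0 and 16.1 CPM. It was near the floor in both ISO libraries and high in both ALLO libraries. It rose 60.9-fold (log2 change 5.93 ± 0.54, adjusted p = 0.00379). Clec2g, a close relative, had 5, 0, 116 and 97 counts and rose 33.6-fold (log2 change 5.07 ± 1.04, adjusted p = 0.0207). Its fold was 17.1 without ISO replicate 2 and at least 14.3 without ISO replicate 1, and the adjusted p was 0.0703 without ALLO replicate 1. Neither gene had more than 8 counts in an ISO library.

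Cd69 (chr6:129267325-129275436) had 16, 0, 314 and 283 counts, with no read in ISO replicate 2. The ALLO libraries were alike and above both ISO libraries. It rose 30.3-fold (log2 change 4.92 ± 1.10, adjusted p = 0.0260), with a fold of 15.2 without ISO replicate 2 and of at least 40.02 without ISO replicate 1. The call was lost without ALLO replicate 1 (0.0833), without ALLO replicate 2 (0.0599) and with the DESeq2 Wald test (0.0630). All 8 T cell markers and all 6 natural killer cell markers rose. Their summed CPM went from 9.59 and 3.74 to 297 and 281 for T cells, and from 1.34 and 4.41 to 41.6 and 38.4 for natural killer cells. Their part in the Cd69 value was not tested.

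Clec2d, the ligand of Klrb1b, stood at 43.2, 33.5, 124 and 51.8 CPM. ALLO replicate 1 stood far above the other libraries, and ALLO replicate 2 was close to ISO replicate 1. It did not pass the test (log2 change 1.20 ± 0.44, adjusted p = 0.0956), though it did without ALLO replicate 2 (log2 change 1.70, adjusted p = 0.0145), with the DESeq2 Wald test (0.0300) and with the replicate number as a block (0.0424). Without ALLO replicate 1 its log2 change was 0.47, and it did not pass. Clec2e (10, 0, 4 and 2 counts), the pseudogene Clec2f (0, 0, 4 and 1) and the brain protein Clec2l (0, 6, 0 and 10) were not tested, and Clec2h and the pseudogene Clec2j had no count. Of these 9 genes 4 were tested and 3 rose (18.4% over all genes tested).

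The mannose receptor Mrc1, an uptake receptor of macrophages and some endothelia (ENSMUSG00000026712.3, chr2:14229392-14332057), stood at 58.2, 29.7, 353 and 222 CPM. Both ALLO libraries were above ISO, though the gene was already well expressed in ISO. It rose 6.54-fold (log2 change 2.71 ± 0.43, adjusted p = 0.0111). Mrc2, which takes up collagen in fibroblasts (chr11:105292643-105351139), stood at 136, 124, 100 and 258 CPM. Its ALLO libraries lay on either side of ISO, and it did not pass the test (log2 change 0.46 ± 0.46, adjusted p = 0.485). Without ALLO replicate 2 its log2 change was -0.37, and without ALLO replicate 1 it was 1.02 and passed (adjusted p = 0.0297), so its value depends on both ALLO libraries. Of 7 fibroblast markers 1, Pi16, fell and none rose, with summed CPM of 7234 and 9401 in ISO and of 14408 and 19625 in ALLO, and their part in the Mrc2 value was not tested. Ly75, or DEC-205, is an uptake receptor of dendritic cells. It stood at 41.7, 59.0, 35.7 and 39.8 CPM (chr2:60292103-60383303). Its ALLO libraries were below ISO but close to ISO replicate 1, and it did not pass the test (log2 change -0.42 ± 0.23, adjusted p = 0.226).

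Clec10a, a galactose-type lectin of macrophages and dendritic cells (ENSMUSG00000000318.16, chr11:70156197-70170834), stood at 18.0, 3.80, 81.1 and 68.1 CPM. ISO replicate 1 was well above ISO replicate 2 and below both ALLO libraries. It rose 6.83-fold (log2 change 2.77 ± 0.71, adjusted p = 0.0374), with a fold of 19.4 once ISO replicate 1 was left out and 4.08 once ISO replicate 2 was. Its adjusted p was 0.0998 without ALLO replicate 1 and 0.0788 without ALLO replicate 2. Its neighbour Mgl2 (chr11:70130329-70137550), a close paralogue whose reads may be shared with it, stood at 16.7, 6.94, 13.3 and 26.4 CPM. The groups of Mgl2 overlapped, with ALLO replicate 1 below ISO replicate 1, and it did not pass the test (log2 change 0.75 ± 0.54, adjusted p = 0.345). Without ISO replicate 1 its log2 change was 1.501, which did not pass either. Langerin, the receptor of Langerhans cells, had 4 counts in ALLO replicate 2 and none in the other libraries, and the Kupffer cell receptor Clec4f had none in any. Of 3 tested markers of liver sinusoids and Kupffer cells 1 rose, and their summed CPM was 82.4, 1.75, 81.4 and 22.2. Of the galactose lectins and langerin 2 were tested and 1 rose (18.4% over all genes tested).

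Members of the DC-SIGN family, on chromosome 8, bind mannose-rich glycans, and mice carry several related genes of it. Reads that fit several of these genes could affect their counts, which was not tested. Only Cd209b, or SIGN-R1 of marginal zone macrophages, rose. It had 7, 4, 110 and 96 counts, low in both ISO libraries and alike in ALLO, and rose 15.1-fold (log2 change 3.91 ± 0.57, adjusted p = 0.00883, chr8:3917655-3926844). Cd209a, the DC-SIGN homologue of monocyte-derived dendritic cells, had 14, 0, 49 and 79 counts. It missed the threshold (log2 change 2.87 ± 1.26, adjusted p = 0.143). Without ISO replicate 1, which held all of its ISO counts, it passed (adjusted p = 0.00748) and was at least 8.43-fold higher. Without ISO replicate 2 its log2 change was 1.87.

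Cd209d (2, 6, 16 and 18 counts, adjusted p = 0.159), Cd209f (44, 16, 51 and 13, adjusted p = 0.918) and Cd209g (15, 12, 14 and 15, adjusted p = 0.836) did not pass the test. With 1 library left out, the log2 change ranged from 1.15 to 2.72 for Cd209d, around a value of 1.75, and from -1.54 to 0.71 for Cd209f, around -0.15. Cd209c had 2, 0, 14 and 10 counts and was not tested, with a ratio of ALLO to ISO of 9.74 (95% counting interval 1.44 to 416, on read pairs). Cd209e (4, 0, 6 and 6) and Clec4g of sinusoidal endothelium (0, 4, 0 and 2) were not tested either. At counts this low the family's smaller members give no firm order between the groups.

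The 3 members that fell are not leukocyte receptors. Clec3b, or tetranectin, a secreted protein that binds plasminogen (ENSMUSG00000025784.5, chr9:123150946-123157432), stood at 156, 115, 75.2 and 54.9 CPM. Both ALLO libraries were below both ISO libraries. It was 2.09-fold lower (log2 change -1.06 ± 0.26, adjusted p = 0.0339), with an adjusted p of 0.123 without ISO replicate 1 and 0.0818 without ALLO replicate 2. Clec14a, an endothelial protein (ENSMUSG00000045930.3, chr12:58264720-58269290), stood at 53.6, 49.97, 19.7 and 31.2 CPM. ALLO replicate 1 was the lowest, and the groups did not overlap. It was 2.03-fold lower (log2 change -1.02 ± 0.27, adjusted p = 0.0410), a call lost with library size alone (0.0834), without ISO replicate 1 (0.104), without ISO replicate 2 (0.0810) and without ALLO replicate 1 (0.0665). Of 8 endothelial markers 4 fell and 1, Emcn, rose. Their summed CPM was 1637 and 1674 in ISO and 738 and 822 in ALLO, and their part in the Clec14a value was not tested.

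Clec11a, a secreted growth factor for blood progenitors and bone (ENSMUSG00000004473.10, chr7:44302687-44306902), stood at 53.2, 51.1, 26.9 and 31.1 CPM. The libraries of each group were close together and the groups apart. It was 1.80-fold lower (log2 change -0.85 ± 0.18, adjusted p = 0.0236). This call was lost with library size alone (0.0552), with the replicate block (0.0518), without ISO replicate 1 (0.118), without ISO replicate 2 (0.101) and without ALLO replicate 1 (0.0615). Clec16a stood at 31.2, 40.6, 31.1 and 30.7 CPM, with ALLO at the level of ISO replicate 1, and did not pass the test (log2 change -0.21 ± 0.22, adjusted p = 0.492). Clec18a had 4, 0, 0 and 2 counts, and the cartilage protein Clec3a had none. Of this group 4 were tested and 3 fell (14.8% over all genes tested).

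**Figure D3:**
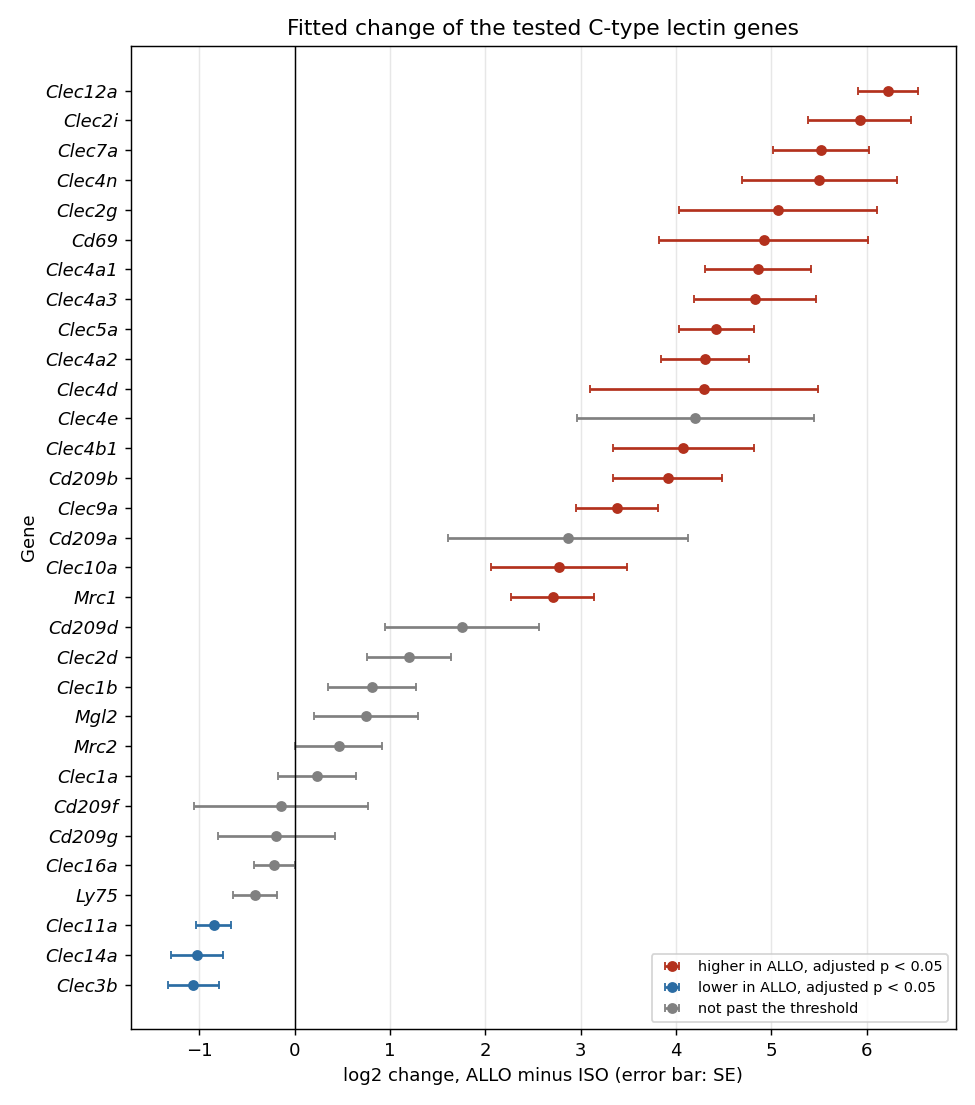
Fitted log2 change of ALLO against ISO for the tested members with a count in both groups, with bars of 1 SE, in order of the change. Clec12a is highest at 6.23 and Clec3b lowest at -1.06. Red and blue points mark members that passed adjusted p 0.05, and grey points the others.

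Values that rest on 2 libraries a group can hang on 1 of them. Over the 4 fits that leave out a library, the log2 change of Clec12a ranged from 5.93 to 6.55 and its adjusted p stayed at or below 0.00967. For Clec4e, with 4 counts in ISO replicate 2, the log2 change ranged from 3.23 to 8.06. Clec5a stayed between 4.03 and 4.92.

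**Figure D4:**
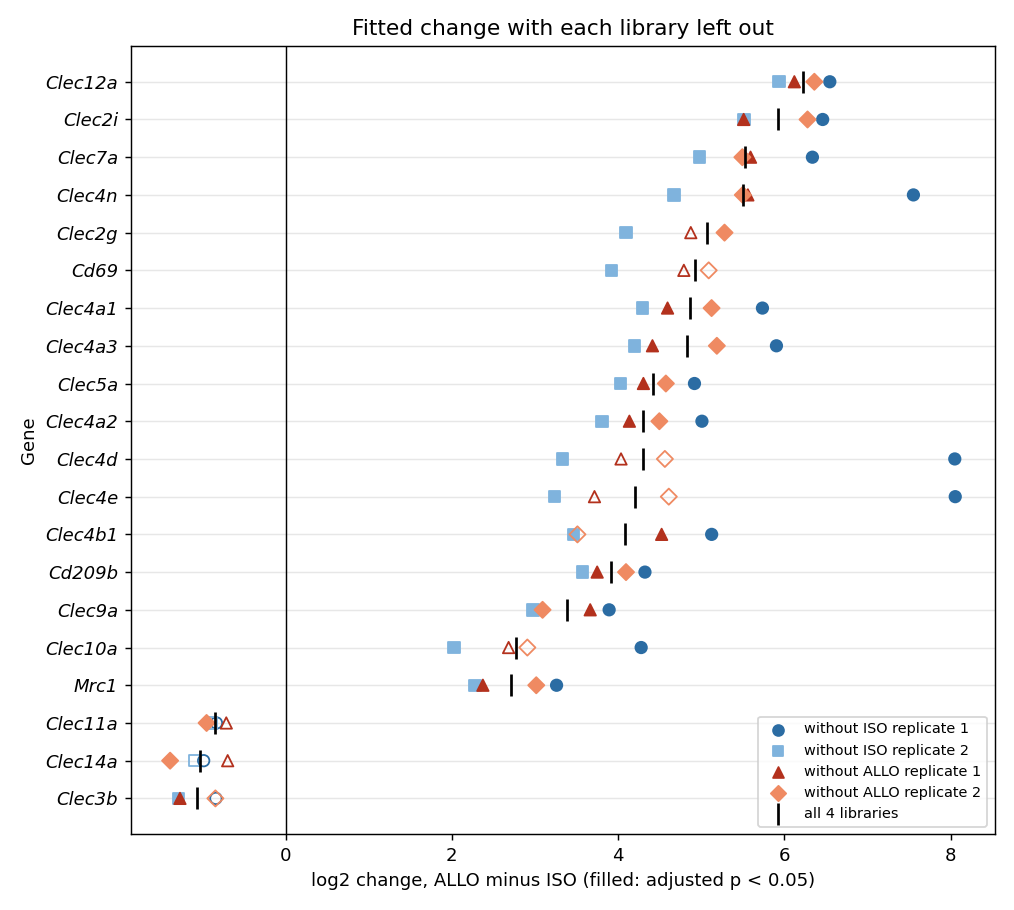
Log2 change of the members that passed the test, and of Clec4e, fitted with all libraries and without each library in turn, leaving out fits in which a group had no count. Open symbols did not pass adjusted p 0.05. The points of Clec12a lie between 5.93 and 6.55, while those of Clec4d run from 3.33 to 8.05.

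Each member was also set against the macrophage and monocyte markers, as its CPM per 1000 CPM of their summed level, without a test. Summed marker CPM was 12.4 times as high in ALLO as in ISO. Clec12a stood at 2.55 and 4.17 in ISO and at 18.3 and 18.4 in ALLO, 5.45 times as high. Clec2i, with only 8 and 4 counts in ISO, was 4.68 times as high, Clec4n 4.53 times, Clec7a 3.78 times and Clec4a1 2.37 times. The ratios of these genes and of Clec4a3 were higher in ALLO, with no overlap, for this list, for the list without Lyz2, and for Csf1r, Adgre1 or Cd68 alone. The other direction was seen for Mrc1, at 57.8 and 73.3 in ISO and 36.9 and 28.1 in ALLO, or 2.02-fold lower. Over the 5 denominators it was 1.47-fold to 3.44-fold lower with no overlap. Mgl2 was 7.14-fold lower per marker (16.6 and 17.1 against 1.38 and 3.34), with a range of 5.63-fold to 11.8-fold. Clec10a was 1.597-fold lower (17.9 and 9.39 against 8.47 and 8.61), but its groups overlapped with the list without Lyz2.

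Of the 17 members that rose, 12 had a higher ratio to these markers in both ALLO libraries, 2 a lower one and 3 overlapped (Clec9a, Clec4b1 and Cd209b). The 17 were picked as higher in these same libraries, so this tally is a description only. Among the 12, Clec4a4 had no ISO count, and Clec2g and Cd69 had none in ISO replicate 2. Their higher ratios, and that of Clec2i with 8 and 4 ISO counts, rest on few ISO read pairs. Without ISO replicate 1 the ratio was lower for 4, and with the list without Lyz2 it was lower for 1. With 1 marker as the denominator, the ratio was higher for 11 (Csf1r) or 9 (Adgre1 or Cd68), with Clec4d overlapping in all 3 cases and Clec4a2 and Clec5a with Adgre1 and Cd68. Clec9a was then lower with Csf1r and Cd68. The markers of resident macrophages moved otherwise: of 7, only Lyve1 rose, Cbr2 and Gas6 fell, and summed CPM was 1155 and 1147 in ISO and 655 and 523 in ALLO. These are ratios of whole-tissue RNA and do not say which cells held either transcript.

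**Figure D5:**
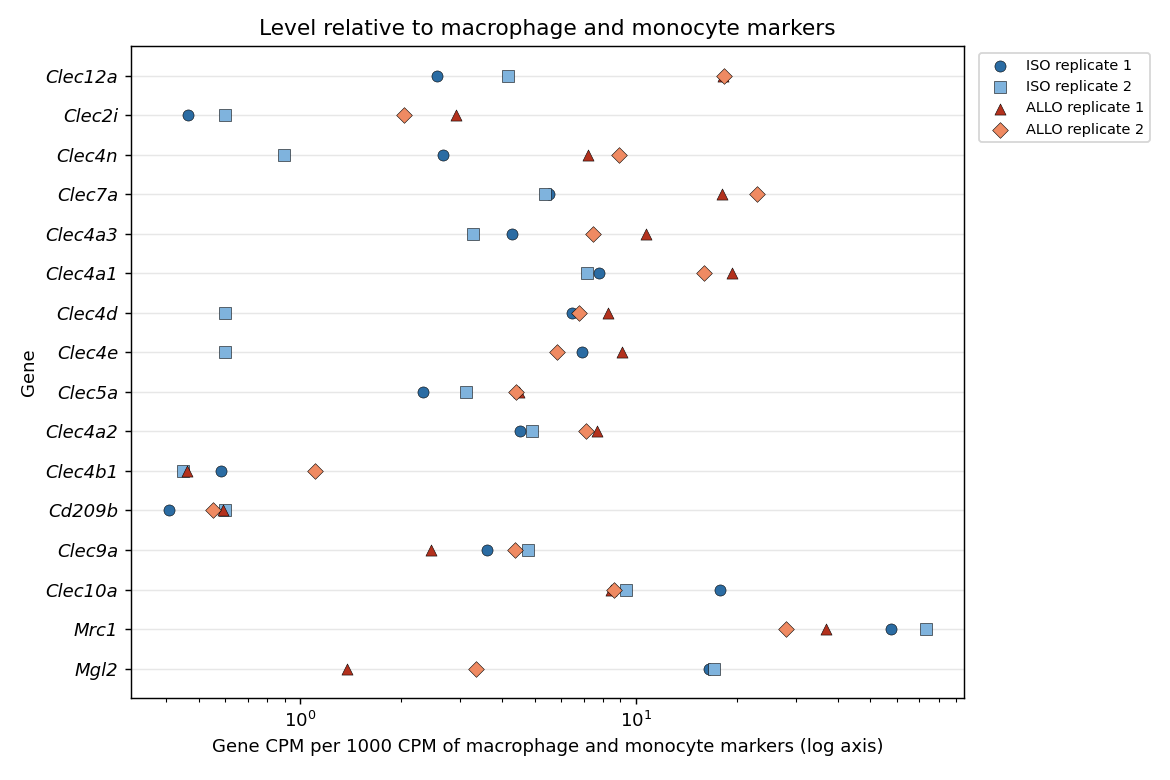
CPM of each member that rose, and of Mgl2 and Clec4e, per 1000 CPM of the macrophage and monocyte markers, in each library on a log axis, for members with a count in every library. Clec12a stands at 2.55 and 4.17 in ISO and at 18.3 and 18.4 in ALLO, while Mrc1 and Mgl2 lie lower in ALLO.

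The members that rose lie largely in 2 stretches of chromosome 6, which also hold 8 and 9 of the 32 tested members. Over all genes tested, 18.4% were called higher. In the Dectin-2 cluster (chr6:122921848-123289870), 7 of 8 tested members rose and Clec4e did not pass. The 4 other genes inside it were not tested. Within 250 kb on either side, 6 of 18 genes were tested, of which the glucose transporter Slc2a3 (log2 change 2.59) and the complement receptor C3ar1 (4.86) rose, the transcription factor Foxj2 fell by 0.66 on the log2 scale, and 3 did not pass.

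In the stretch of the natural killer gene complex that holds members (chr6:128652416-129472779), 6 of 9 tested members rose, and Clec2d, Clec1b and Clec1a did not pass. Of 8 other tested genes inside it 7 rose, among them Klrb1c, Klrb1b and Klrb1f. In the flanks 7 of 18 tested genes rose, among them Olr1, Klrd1 and Klrk1, and 3 fell. In the DC-SIGN cluster (chr8:3707064-4137707) 1 of 5 tested members rose, and in its flanks 2 of 23 tested genes rose and 2 fell.

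Of 18 genes that carry the signals of these receptors, all tested, 13 rose, 1 fell and 4 did not pass, with a median log2 change of 3.64. The adaptors Fcer1g and Tyrobp and the kinase Syk were among those that rose, by 4.03 ± 0.71 (adjusted p = 0.0141), 3.64 ± 0.62 (adjusted p = 0.0129) and 3.63 ± 0.80 (adjusted p = 0.0255) on the log2 scale. Their folds were 16.3, 12.5 and 12.4, and without ISO replicate 1 they were 40.4, 27.9 and 39.0. Without ISO replicate 2 they were 10.02, 7.92 and 7.25, and Syk lost its call without ALLO replicate 1 (0.0657) or ALLO replicate 2 (0.0555). The next genes are those with the smallest adjusted p. Fgr and Plcg2, a Src-family kinase and a phospholipase downstream of Syk, rose by 3.81 ± 0.38 (adjusted p = 0.00431) and 2.81 ± 0.28 (adjusted p = 0.00438) on the log2 scale. The phosphatases used by inhibitory receptors, Inpp5d and Ptpn6, rose by 4.12 ± 0.47 (adjusted p = 0.00532) and 4.43 ± 0.57 (adjusted p = 0.00670). Their folds were 17.4 and 21.6. Without ISO replicate 1 they were 29.3 and 43.1, and that of Ptpn6 was 14.2 without ISO replicate 2. Ptpn11, a widely expressed phosphatase, was lower by a log2 change of -1.20 ± 0.21 (adjusted p = 0.0141), a call lost without ISO replicate 2 (0.0957). Card9, the adaptor behind Syk, had 4.03, 0.121, 15.5 and 24.5 CPM and missed the threshold (log2 change 3.26 ± 1.19, adjusted p = 0.0942). Its log2 change was 7.29 once ISO replicate 1 was removed and 2.29 once ISO replicate 2 was. As for Clec4e, these fits lack the gap between the ISO libraries. The kinase Src and Malt1 did not pass either.

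Among 10 genes listed as ligands and partners, 4 rose, 2 fell and 4 did not pass, with a median log2 change of 1.29. The 10 include Sap130 (log2 change 0.14, not passed), which shares a name with the nuclear protein that Mincle senses but is a different gene. Klrb1b and Klrb1f, the receptors of Clec2d and Clec2i, had 4 and 4 counts in ISO replicate 1 and none in ISO replicate 2. In ALLO they had 185 and 454 counts (Klrb1b) and 139 and 83 (Klrb1f). They rose 120-fold (adjusted p = 0.00815) and 43.7-fold (adjusted p = 0.0181). With so few ISO counts these folds are loose: without ISO replicate 1 they were at least 41.6 and 15.1, without ISO replicate 2 they were 61.9 and 22.4, that of Klrb1b was 76.4 without ALLO replicate 2, and the Klrb1f call was lost without ALLO replicate 1 (0.0681). Podoplanin (Pdpn), the ligand of Clec1b, rose 4.34-fold (log2 change 2.12 ± 0.43, adjusted p = 0.0203), or 7.05-fold without ISO replicate 1, and was not called without ALLO replicate 2 (0.0584). Lgals9 rose by 1.36 ± 0.22 on the log2 scale (adjusted p = 0.0112). Mmrn2, the matrix partner of Clec14a, was 1.56-fold lower (adjusted p = 0.0400) and lost its call without any 1 library (0.0567 to 0.201), with library size alone, with no filter and with the replicate block. Icam2 was 2.14-fold lower (adjusted p = 0.0178), with adjusted p of 0.0560 and 0.0586 without ISO replicates 1 and 2.

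Of 18 other genes with a C-type lectin-like domain that the symbols left out, 15 were tested, 4 rose, 2 fell and 9 did not pass, with a median log2 change of 0.74. The B cell co-receptor Cd72 rose by 5.10 ± 0.37 (adjusted p = 0.00284), the oxidised lipoprotein receptor Olr1 by 3.98 ± 0.56 (0.00814) and Pla2r1 by 1.59 ± 0.29 (0.0147), all as log2 changes with adjusted p. Thrombomodulin (Thbd) was lower by a log2 change of -1.11 ± 0.20 (0.0158) and the scavenger collectin Colec12 by -1.21 ± 0.30 (0.0339). Without ISO replicate 1 the fold of Olr1 went from 15.8 to 24.8. The Thbd call was lost without ISO replicate 1 (0.0755), and that of Colec12 with library size alone (0.0524) and without ISO replicate 2 (0.160), ALLO replicate 1 (0.0609) or ALLO replicate 2 (0.105).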

How the data were processed

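RNA depleted of ribosomal RNA was sequenced from 4 libraries. The authors deposited unnormalised read counts for each gene, with its coordinates and length. The build was mm10, and featureCounts of Subread 1.6.4, R 4.0.3 and DESeq2 1.30.0 are named, per the submitters' processing notes. Not given in the sources used here are the strand setting, the handling of multi-mapping reads, the aligner and the annotation release. Gene names came from GENCODE M21, which matched 54723 of 54752 IDs without their version. Coordinates are those of the deposited table. Low counts were mostly even (68.0% to 74.6% of values from 1 to 20), the pattern of read pairs counted by both mates, so the floor for genes without counts in a group was 6 counts per library, or 3 read pairs. Intervals and floors cover counting error only.

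Genes were filtered with filterByExpr (minimum count 10), scaled by TMM (factors 0.926 to 1.09) and tested over the whole table with the quasi-likelihood test of edgeR 4.0.16, which had no term besides the group, at adjusted p under 0.05. The common biological coefficient of variation was 0.324. CPM are TMM-normalised, and TPM use the deposited lengths. Replicates did not agree within sampling noise (chi-square over degrees of freedom 41.9 in ISO and 136 in ALLO).

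The members, role groups and gene lists were chosen with earlier results of these data known. Every member is named. Those past the test with a mean of 50 or more counts, or with the highest TPM of their role group, have every library's value. Each list's best-ranked genes by adjusted p are named, at most 4 in its majority direction and 2 in its minority direction, and a few are not reported here. Fcer1g, Tyrobp, Syk, Card9, Src, Malt1 and the genes named around the clusters were chosen after their values were seen. Alternatives were other scalings and filters, the DESeq2 1.42.0 Wald test, limma-voom (limma 3.58.1), a replicate block, halved counts and each library left out. Other macrophage denominators were added after seeing the data.

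The procedure was tried on simulated counts of 16425 genes with a mean of 10 or more counts. They were drawn with the libraries' means and sizes and the same coefficient of variation, 0.324, for every gene. Of 50 changed genes each, it recovered 4% for a fold of 2, 60% for 4, 98% for 8 and 100% for 16. It called 9 of 16045 unchanged genes. These shares do not carry over to genes with a wider spread between replicates, such as Clec4d, Clec4e and Card9. Nor do they hold for the data's threshold, since an adjusted p depends on how many genes change. In simulation 140 genes were called, and in the data 5469. R 4.3.3 and Python 3.11.15 were used, with matplotlib 3.10.9, scipy 1.17.1 and pandas 2.3.3.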

Additional observations from a re-analysis of the deposited data

How the results depend on the processing

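With 2 libraries per group, the members that did not pass are not shown to be unchanged. Folds of genes under about 10 counts in ISO rest on a few read pairs. The simulation changed far fewer genes than were called in the data, so its recovery of 2-fold changes does not give the recovery here. Of the 20 member calls, 20 were shared with DESeq2 size factors, upper-quartile factors, no filter and limma-voom, 19 with the DESeq2 Wald test, the mean count filter, halved counts and the replicate block, and 18 with library size only, where the median log2 change of all genes moved from 0.03 to 0.22 and 65.5% rather than 55.4% of all calls were higher. Leaving out 1 library, 13 to 17 were shared. Whether equal replicate numbers mark a pairing is not given in the labels. Over genes, the deviations of ISO replicate 1 and ALLO replicate 1 from their group means had a correlation of 0.0974. With 2 libraries a group, replicate 2 mirrors replicate 1, so this value cannot exclude a pairing. With the replicate block 21 members were called, without Clec11a and with Clec2d and Clec4e, and 2766 genes were higher and 2107 lower.

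Members lower in ALLO numbered 1 with library size only and 0 to 2 with 1 library left out. Without 1 library, all genes lower numbered 1512 to 2245, against 2437. In the signalling list 0 to 2 genes were lower with 1 library left out. Among ligands and partners the number lower was 1 with library size only, no filter or the replicate block, and 0 to 1 with 1 library left out. Among the other lectin-like genes it was 1 with library size only and 1 without any 1 library. The members' median log2 change was 2.85 to 4.30 with 1 library left out, or 2.50 to 3.55 with members without ISO counts at their bounds. Of the members that rose, 1 had a lower ratio to macrophage markers with the list without Lyz2, and 2 to 4 with 1 library left out. Log2 changes turned direction in 3 members that did not pass. Cd209f, at -0.15, gave 0.030 with library size only and -1.54 to 0.71 with 1 library left out. Clec1a, at 0.23, gave -0.22 to 0.60 and Mrc2, at 0.46, gave -0.37 to 1.02. The cause was not tested.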
